A study of Homo sapiens with 9 samples.

Results

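The 35 genes described here are interferon-induced genes and sensors of double-stranded RNA, taken as a named list out of 58214 genes in the files, of which 30421 had any counts. They were measured by poly(A) RNA-seq in K562, an erythroleukaemia cell line that grows in suspension, harvested 4 days after the first siRNA transfection. By the study's methods, the same siRNAs were transfected again in a larger amount on day 3. Libraries fell into 3 groups of 3: a nontargeting siRNA pool (SCR), an siRNA pool against DHX34 (siDHX34) and siRNA against UPF1 (siUPF1). UPF1 is the core helicase of nonsense-mediated decay (NMD), by which mRNAs that carry a premature stop codon are removed, and DHX34 is a helicase that acts in the same pathway. The labels spell the line K652 and give the treatment of SCR as WT, while the series design text names K562. All groups were transfected, so the effect of transfection itself was not tested. The labels set no independent siRNAs against the same target side by side, so loss of the target and other effects of its siRNA cannot be told apart.

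Double-stranded RNA in the cytoplasm is recognised by the helicases RIG-I and MDA5 (IFIH1), which signal through MAVS to the transcription factors IRF3 and IRF7. These induce type I interferon, and secreted interferon acts through its receptor on a complex of STAT2, IRF9 and a partner STAT to induce many effector genes. Some of these effectors act on double-stranded RNA directly: EIF2AK2 (PKR) stops translation, the OAS enzymes activate RNase L, and ADAR edits adenosine to inosine, which hides self RNA from the sensors. The questions were which of the list genes K562 cells express at all, and whether depletion of DHX34 or of UPF1 raised them.

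The promoters of classical interferon-induced genes carry the interferon-stimulated response element, whose core is GAAA, any 2 bases, and GAAA again. RefSeq promoters on GRCh38.p14, from 250 bases before to 50 bases after the start, were searched on both strands for this core, and overlapping matches were allowed. Of the 35 list genes 27 had a promoter in the table, and 18 of those 27 held the core, beside 4.38% of all 27305 genes and 3.57% of all 35116 promoters. Windows of 50 bases are shown for 3 genes that rose with siDHX34 (BST2, PARP14, PARP9) and for 2 abundant entry blockers (IFITM1, IFITM3). They are also shown for 3 genes under 1 TPM (ISG15, MX1, IFI44L). Letters in capitals are the bases covered by the core, read on the strand of the gene.
BST2, chr19:17405725-17405774, minus strand: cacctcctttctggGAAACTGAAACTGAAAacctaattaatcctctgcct
PARP14, chr3:122680790-122680839, plus strand: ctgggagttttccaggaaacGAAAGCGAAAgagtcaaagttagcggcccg
PARP9, chr3:122564312-122564361, minus strand: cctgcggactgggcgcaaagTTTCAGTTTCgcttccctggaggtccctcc
IFITM1, chr11:314014-314063, plus strand: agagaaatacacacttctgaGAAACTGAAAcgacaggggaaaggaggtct
IFITM3, chr11:320866-320915, minus strand: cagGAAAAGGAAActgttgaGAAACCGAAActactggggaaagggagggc
ISG15, chr1:1013370-1013419, plus strand: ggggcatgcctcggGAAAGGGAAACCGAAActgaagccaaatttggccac
MX1, chr21:41420549-41420598, plus strand: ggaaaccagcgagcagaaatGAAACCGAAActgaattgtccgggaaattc
IFI44L, chr1:78620355-78620404, plus strand: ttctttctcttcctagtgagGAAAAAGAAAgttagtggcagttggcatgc
In PARP9 the core lies on the opposite strand and so reads TTTC. The core was found in 7 of the 15 matched genes expressed in K562 and in 11 of the 12 matched genes under 1 TPM. Of the 6 genes that rose with siDHX34, described below, 3 held the core and ADAR, STAT2 and TRIM25 did not. A match is a description of the letters in this window and not of a bound site.

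Of the 35 genes, 18 were expressed at a mean of at least 1 TPM (the authors' length-scaled measure of level) over the 9 libraries, and 17 were below. The 17 comprised 6 genes between 0.1 and 1 TPM, 7 below 0.1 TPM with more than 3 counts in some library, and 4 with 0 counts in every library. Library totals ran from 73478797 to 103625443 expected counts, so 3 counts, the most that a count of 0 allows, corresponded to between 0.0288 and 0.0428 CPM (counts scaled to the library total). These limits cover counting error only.

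**Figure D1:**
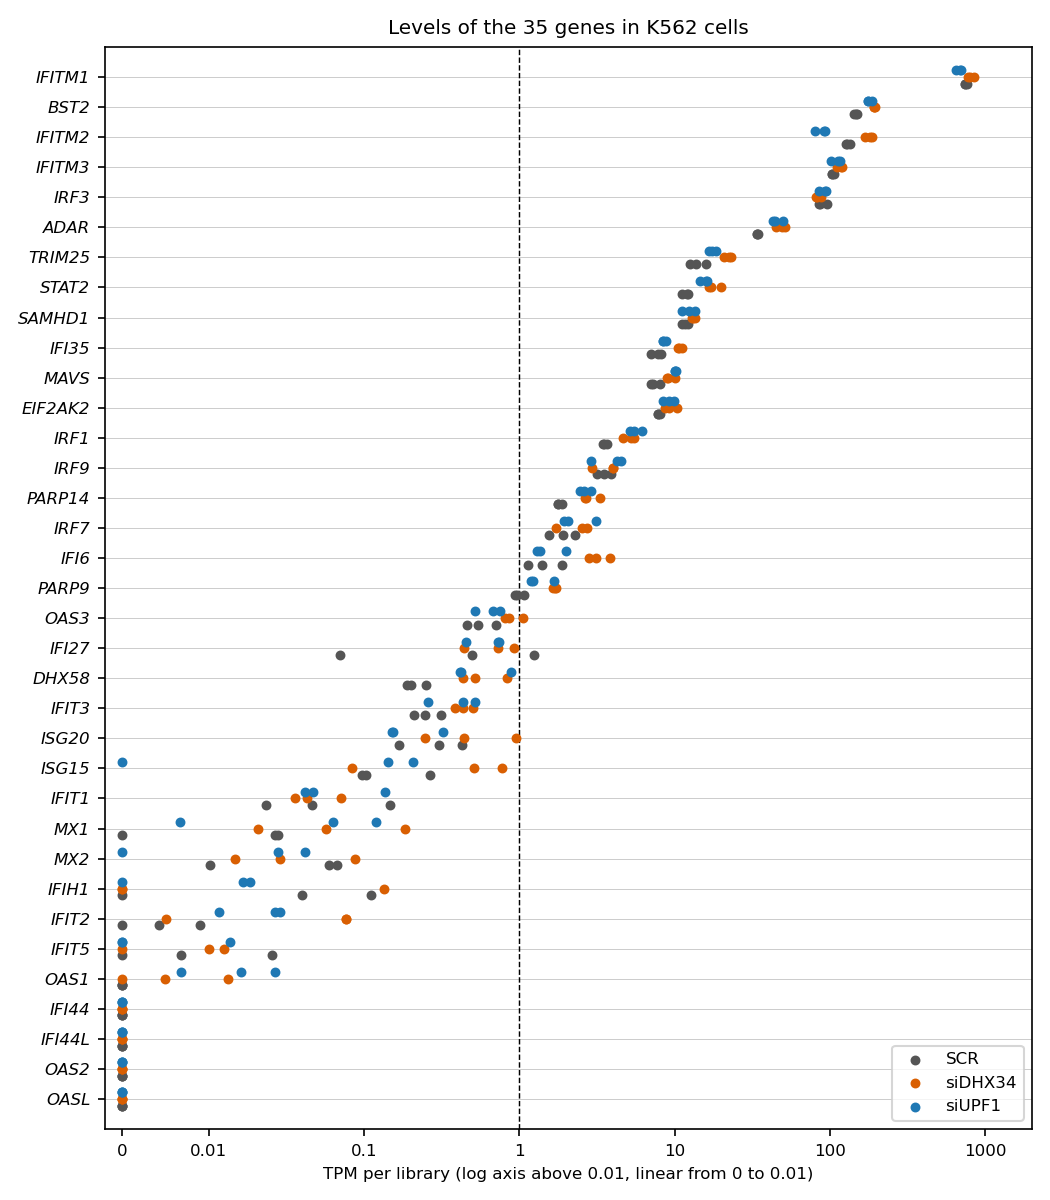
TPM of the 35 list genes in each library, ordered by mean TPM, on a log axis above 0.01 that is linear from 0 to 0.01, with SCR in grey, siDHX34 in orange and siUPF1 in blue. IFITM1 lies highest, and IFI44, IFI44L, OAS2 and OASL sit at 0 in all 9 libraries. The dashed line marks 1 TPM.

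The transcription factors of the pathway were all present, 5 of 5 at 1 TPM or more. IRF3, which is constitutive in most cells, stood at 86.7, 96.4 and 85.7 TPM in SCR. STAT2 stood at 12.3, 12.0 and 11.1 TPM, IRF9 at 3.93, 3.52 and 3.15 TPM, and IRF1 at 3.52, 3.45 and 3.65 TPM. IRF7, itself induced by interferon in most cells, was the lowest at 1.56, 1.90 and 2.29 TPM.

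Among the 4 sensors and adaptors, the adaptor MAVS and the ubiquitin ligase TRIM25 were expressed and the 2 helicases were not. MAVS was at 7.28, 8.12 and 7.04 TPM in SCR and TRIM25 at 12.6, 16.0 and 13.8 TPM. DHX58 (LGP2) stayed between 0.191 and 0.891 TPM over all libraries. IFIH1 had 0 counts in 4 of 9 libraries and at most 12 counts in any.

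Of the 6 effectors that act on double-stranded RNA, only ADAR and EIF2AK2 reached 1 TPM. ADAR was at 34.0, 34.0 and 34.3 TPM in SCR and EIF2AK2 at 7.83, 8.02 and 7.84 TPM, in both cases with little spread. The OAS family, the sensors that make the activator of RNase L, was nearly absent. OAS3 lay between 0.458 and 1.06 TPM, OAS1 had 0 counts in all 3 SCR libraries and at most 4 in any library, and OAS2 and OASL had none.

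Genes that block viral translation or entry divided by family. The IFITM proteins, which act in membranes where enveloped viruses fuse, were among the abundant mRNAs of the line: IFITM1 averaged 745 TPM over the 9 libraries, above 99.4% of genes with counts. IFITM2 averaged 132 TPM and IFITM3 110 TPM. The IFIT proteins, which bind foreign RNA ends, were at the other end. IFIT3 lay between 0.212 and 0.521 TPM, IFIT1 between 0.0236 and 0.147 TPM, IFIT2 had at most 22 counts and IFIT5 at most 6. IFIT2 had 2, 1 and 0 counts in SCR, 22, 16 and 1 in siDHX34 and 6, 3 and 9 in siUPF1. IFIT5 had 6, 0 and 2 counts in SCR, 3, 0 and 3 in siDHX34 and 3, 0 and 0 in siUPF1. Change of IFIT2 and IFIT5 was not tested. The 3 IFITM genes stand side by side on chromosome 11 between 303655 and 329475 and share long near-identical stretches, so the division of reads among them is uncertain.

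Of the 13 other antiviral effectors 6 were expressed. BST2 (tetherin), which holds budding virions at the membrane, stood at 143, 149 and 147 TPM in SCR. SAMHD1, a dNTP hydrolase, stood at 11.2, 12.2 and 11.8 TPM, and IFI35 at 7.82, 8.21 and 7.10 TPM. In SCR, PARP14, a mono-ADP-ribosyltransferase, averaged 1.81 TPM ± 0.0543 (SD, n = 3), IFI6 1.48 TPM ± 0.376 and PARP9, which works with a ubiquitin ligase, 0.995 TPM ± 0.0736. PARP9 thus counted as expressed only through the knockdown libraries, with means of 1.69 TPM in siDHX34 and 1.36 TPM in siUPF1. The genes most often used as readouts of an interferon response were low or absent: ISG15, a ubiquitin-like modifier, had 0 to 34 counts, MX1 0 to 7, MX2 0 to 9, and IFI44 and IFI44L none. ISG15 had 3, 3 and 10 counts in SCR, 34, 3 and 16 in siDHX34 and 0, 10 and 7 in siUPF1. None of these genes was tested for change. ISG20 and IFI27 averaged 0.352 and 0.647 TPM, and IFI27 ranged from 0.0705 to 1.24 TPM within SCR alone.

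Changes between groups were tested on counts with TMM scaling, on the 24 genes that passed the filter on low counts: all 18 expressed genes and 6 of those under 1 TPM (OAS3, IFI27, DHX58, IFIT3, ISG20, IFIT1). A gene was called at an edgeR adjusted p of at most 0.005. Over all 3 comparisons 13 genes were called, all of them expressed, and 5 expressed genes were called in none (IFITM3, EIF2AK2, IRF1, IRF9, IRF7). Shares over all genes are given below for edgeR calls at this threshold in single comparisons. None was taken for unadjusted p, for other methods or for the 3 comparisons together. Calls between groups rest on counts, because on the TPM scale the median of all tested genes was itself shifted, by 0.13 in siDHX34 and 0.17 in siUPF1 against SCR (log2, from limma), and by 0.018 and 0.016 on the count scale. Where TPM of transcript forms or marker lists is set side by side between groups below, or a result of limma on TPM is given, that shift is part of the values.

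siRNA against DHX34 lowered its target from 73.7 CPM ± 1.11 to 31.4 ± 2.32 (SD, n = 3 each), a log2 change of -1.23, and siRNA against UPF1 lowered UPF1 from 262 CPM ± 8.13 to 106 ± 1.47, a log2 change of -1.31. DHX34 itself was at 74.8 CPM in siUPF1 and UPF1 at 260 CPM in siDHX34. The 8 markers of K562 cells, among them GATA1, KLF1 and the fetal globin HBG2, were all expressed. Their summed level was 23800 to 25400 TPM in SCR, 21500 to 23600 in siDHX34 and 14400 to 15600 in siUPF1. The sum rests mainly on the globins HBG2, HBG1 and HBE1, with means of 10500, 4820 and 4490 TPM, and says little about the other markers. With siUPF1 edgeR called 5 of the 8 lower and 1 higher (TFRC, log2 change 0.40 ± 0.030), where 12.9% of all genes fell and 12.4% rose. With siDHX34, 2 were called lower and 0 higher, where 4.86% of all genes fell and 5.54% rose.

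With siDHX34, 6 of the 24 tested genes rose and 0 fell: TRIM25, PARP14, BST2, ADAR, STAT2 and PARP9. The rises were small, between 1.19-fold and 1.48-fold. Over all 17004 genes tested in this comparison 5.54% rose and 4.86% fell. The median log2 change was 0.33 over the 24 genes and 0.27 over the 18 expressed ones, against 0.018 over all genes, and 19 of 24 were above 0. At an unadjusted p under 0.05, 16 of the genes were higher and 1 (IRF3) was lower. DESeq2 called 9 higher and 1 lower, and limma on TPM 5 higher and 0 lower. The shares of all genes given above hold for the edgeR calls only.

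TRIM25, the ubiquitin ligase that activates RIG-I, was at 69.5, 75.8 and 75.2 CPM in SCR and at 94.7, 95.1 and 93.3 CPM in siDHX34. All siDHX34 libraries lay above all SCR libraries, a log2 change of 0.36 ± 0.042 (SE; adjusted p = 0.000179). BST2 was at 114, 115 and 118 CPM in SCR and at 140, 139 and 135 CPM in siDHX34, again without overlap (log2 change 0.26 ± 0.036, adjusted p = 0.000555). ADAR went from 170, 183 and 180 CPM to 205, 214 and 223 CPM (log2 change 0.27 ± 0.042, adjusted p = 0.000958). For STAT2, the subunit of the interferon-activated complex that carries its transactivation domain, the values were 31.0, 27.1 and 26.9 CPM in SCR and 36.7, 35.5 and 39.02 CPM in siDHX34. Its log2 change was 0.39 ± 0.062 (adjusted p = 0.00117).

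PARP14 and PARP9, which lie in the same stretch of chromosome 3, showed the largest rises among the genes called. PARP14 was at 12.9, 13.0 and 12.4 CPM in SCR and at 18.0, 17.7 and 18.9 CPM in siDHX34 (log2 change 0.52 ± 0.060, adjusted p = 0.000169). PARP9 was at 3.73, 4.18 and 3.92 CPM in SCR and at 5.77, 5.91 and 5.86 CPM in siDHX34 (log2 change 0.57 ± 0.10, adjusted p = 0.00203). In both genes the SCR and siDHX34 libraries did not overlap.

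TRIM25, BST2 and PARP14 stayed called whichever of the 6 libraries was left out. ADAR was not called without SCR replicate 1 or 3, STAT2 without SCR replicate 2 or 3 or DHX34 replicate 1, and PARP9 was called only when DHX34 replicate 3 was the library left out. Without SCR replicate 3, 3 genes were called in place of 6. With counts scaled by transcript length 3 were called too, but these were TRIM25, STAT2 and ADAR, while BST2 (adjusted p = 0.0057), PARP14 (adjusted p = 0.0058) and PARP9 (adjusted p = 0.0085) were not. PARP14 (adjusted p = 0.0184) and PARP9 (adjusted p = 0.0113) were also not called with limma on TPM.

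Several further genes had estimates above 0 that did not pass the threshold. IFI6 had the largest estimate of all 24, 0.914 CPM ± 0.213 in SCR against 1.81 ± 0.317 in siDHX34 (log2 change 0.99 ± 0.23, adjusted p = 0.00863). OAS3 was at 1.19 CPM ± 0.160 and 1.99 ± 0.162 (log2 change 0.74 ± 0.18, adjusted p = 0.0103). IFITM2 (0.27 ± 0.059, adjusted p = 0.00702) and EIF2AK2 (0.21 ± 0.050, adjusted p = 0.00981) missed it narrowly too. IRF3 had the only estimate below 0 near the threshold (-0.16 ± 0.036, adjusted p = 0.0096). With a gene length trend removed, EIF2AK2 (0.105, adjusted p = 0.1) and IRF3 (-0.064, adjusted p = 0.224) lay further from the threshold. IFITM2 was then called (0.38, adjusted p = 0.000667), and IFI6 (adjusted p = 0.00569) and OAS3 (adjusted p = 0.0137) were not. With counts scaled by transcript length, none of these genes was called.

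**Figure D2:**
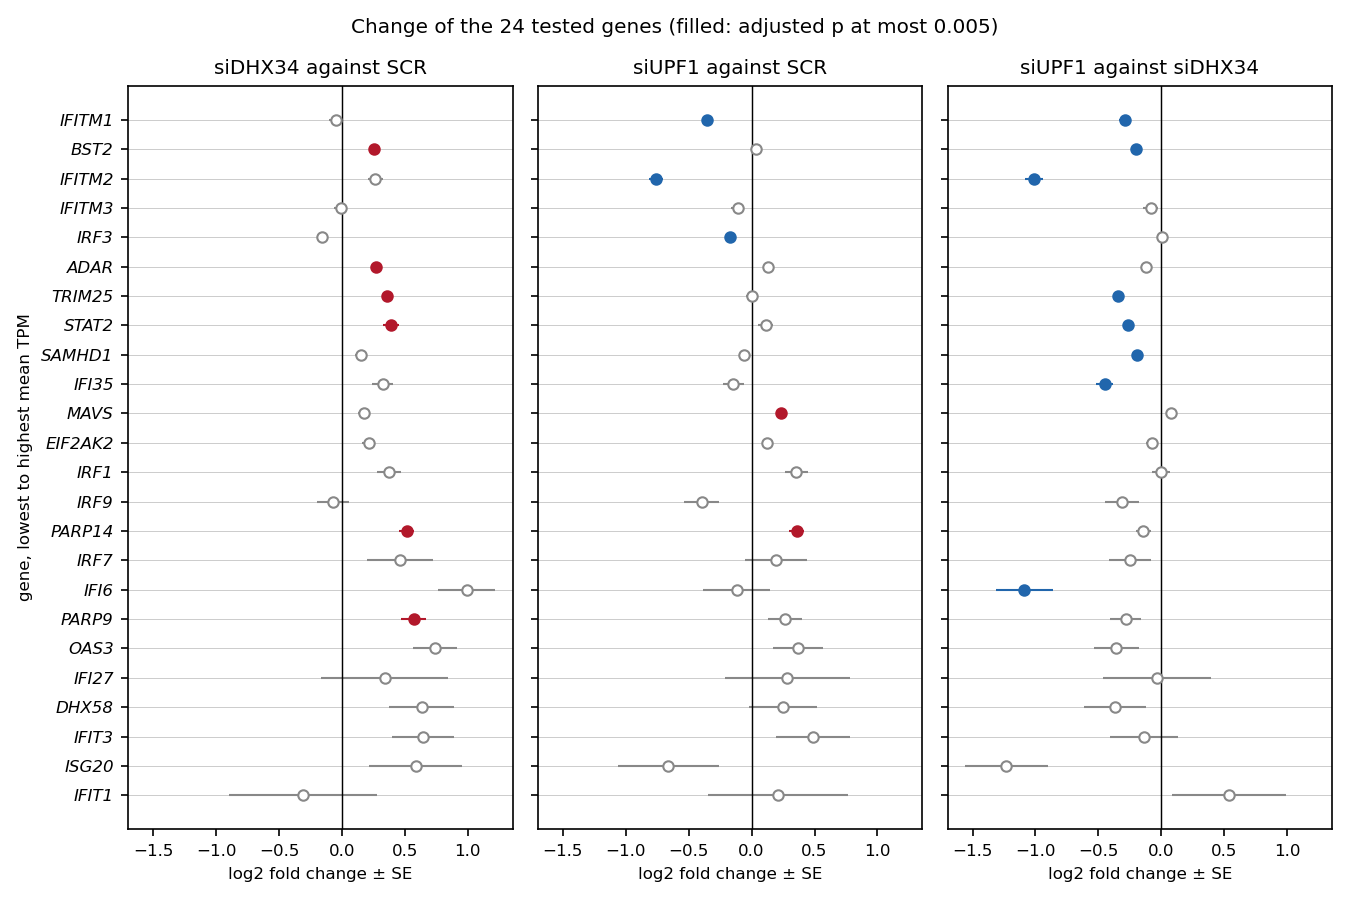
Log2 fold change ± SE of the 24 tested genes, ordered by mean TPM, for siDHX34 against SCR, siUPF1 against SCR and siUPF1 against siDHX34, with filled points where the adjusted p is at most 0.005. With siDHX34 the 6 filled points lie to the right of 0, with siUPF1 2 lie to the right and 3 to the left, and between the knockdowns all 8 lie to the left.

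With siUPF1, 2 of the 24 genes rose, PARP14 and MAVS, and 3 fell, IFITM2, IFITM1 and IRF3. Over all 17184 genes tested 12.4% rose and 12.9% fell. The median log2 change was 0.12 over the 24 genes and 0.017 over the 18 expressed ones, against 0.016 over all genes. The 2 of 24 that rose and the 3 of 24 that fell are to be read against those background shares.

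IFITM2 had the largest called change against SCR. Its SCR libraries were almost identical at 62.1, 62.0 and 62.1 CPM, and the siUPF1 libraries stood at 39.1, 38.6 and 33.0 CPM (log2 change -0.76 ± 0.056, adjusted p = 1.06e-06). IFITM1 fell from 490, 456 and 480 CPM to 377, 385 and 356 CPM (log2 change -0.36 ± 0.035). IFITM3, the third member of the cluster, overlapped between the groups at 59.7 CPM ± 1.81 and 55.4 ± 4.04 (log2 change -0.11 ± 0.050, adjusted p = 0.0986).

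MAVS, the adaptor through which RIG-I and MDA5 signal, was at 88.4, 94.6 and 85.5 CPM in SCR and at 105, 106 and 105 CPM in siUPF1 (log2 change 0.23 ± 0.040, adjusted p = 0.000604). PARP14 was at 15.7, 17.3 and 16.0 CPM in siUPF1 (log2 change 0.36 ± 0.060, adjusted p = 0.000457). PARP14 was thus called higher in both knockdowns, which were compared with the same SCR libraries. IRF3 went from 83.5, 84.3 and 82.6 CPM to 75.5, 75.8 and 72.1 CPM (log2 change -0.17 ± 0.034, adjusted p = 0.00149), a fall about as large as its uncalled estimate in siDHX34.

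IRF1 (0.36 ± 0.090, adjusted p = 0.00724) and ADAR (0.13 ± 0.032, adjusted p = 0.00585) lay just outside the threshold. BST2 and TRIM25, which rose with siDHX34, had estimates of 0.034 ± 0.030 and 0.00046 ± 0.042 in siUPF1. The value for BST2 depended on the scaling: it was called higher with siUPF1 after the length trend was removed (0.13, adjusted p = 0.00373) and with limma on TPM (0.30, adjusted p = 0.000466). MAVS and PARP14 were not called with length-scaled counts or after a gene length trend was removed (adjusted p from 0.00523 to 0.0673), and PARP14 was not called with limma on TPM (adjusted p = 0.0115). IRF3 was not called under either length setting (adjusted p = 0.0191 and 0.0357), with limma on TPM, or without SCR replicate 2, UPF1 replicate 2 or UPF1 replicate 3. The split of higher against lower calls moved with the scaling: 4 and 3 with DESeq2, 5 and 1 with limma on TPM, 0 and 2 with length-scaled counts, and 1 and 2 with the length trend removed.

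**Figure D3:**
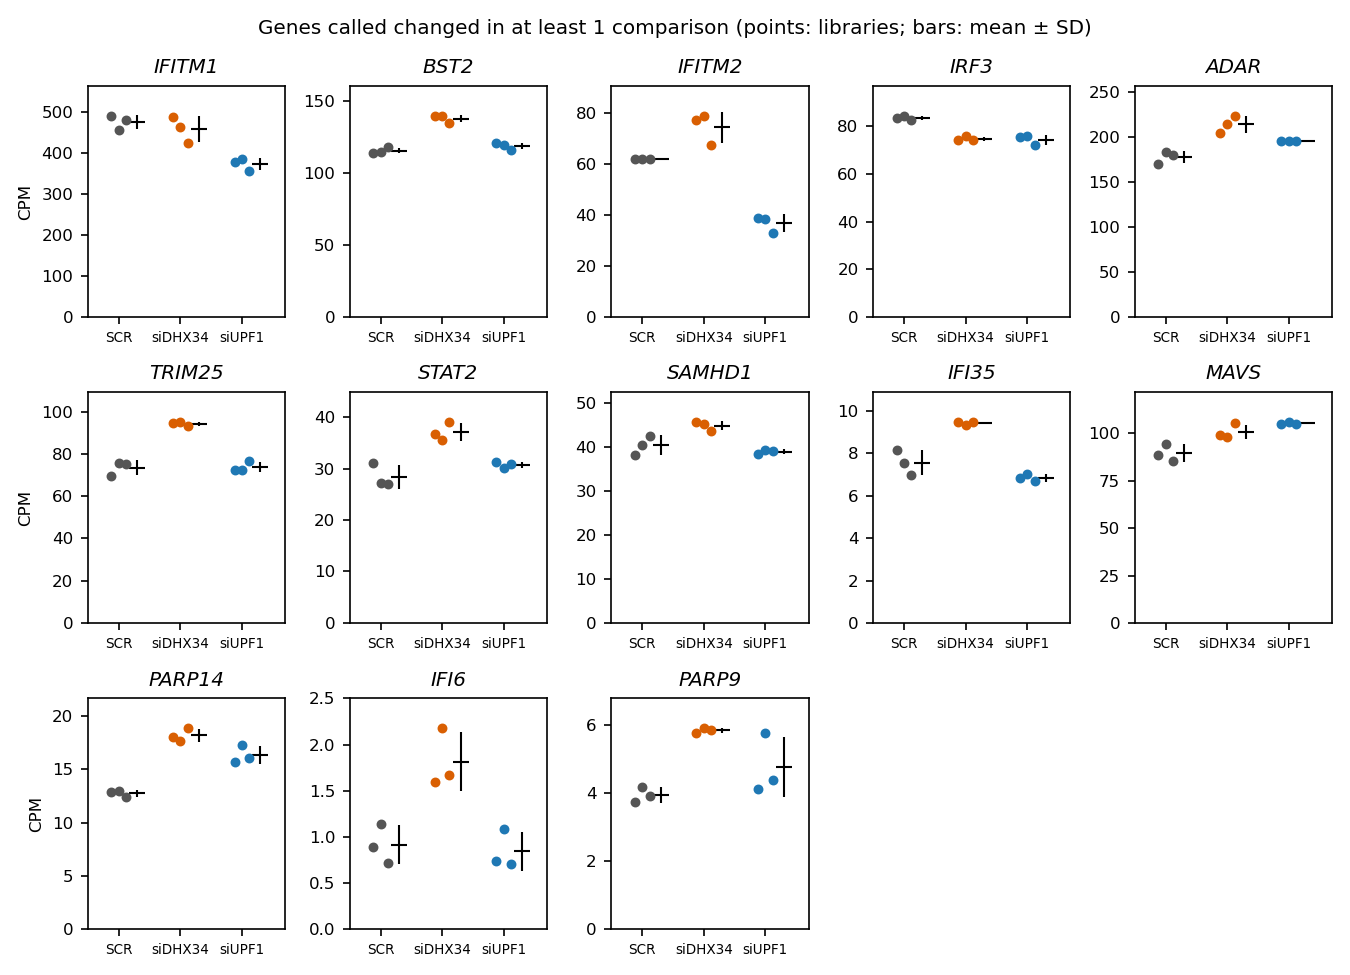
CPM in each library for the 13 genes called in at least 1 comparison, with linear axes from 0, points for libraries and bars for the mean ± SD of 3. IFITM2 stands at 33.0 to 39.1 CPM in siUPF1 and at 62.0 to 62.1 CPM in SCR, while TRIM25 and BST2 are raised in siDHX34 and lie near SCR in siUPF1.

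Comparison of the knockdowns with each other, which uses no SCR library, gave 8 of 24 genes lower in siUPF1 than in siDHX34 and 0 higher. Over all 17435 genes tested 7.47% were lower and 9.89% higher. The median log2 difference was -0.23 over the 24 genes and 0.0089 over all genes, and 3 of 24 were above 0. At an unadjusted p under 0.05, 13 were lower and 0 higher. DESeq2 called 9 lower and 0 higher, and limma on TPM 1 lower and 0 higher. Here too the shares of all genes hold for the edgeR calls only.

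The 8 genes were IFITM2, IFITM1, TRIM25, BST2, STAT2, IFI35, IFI6 and SAMHD1. IFITM2 differed most among those with high counts, at 77.2, 78.9 and 67.5 CPM in siDHX34 against 39.1, 38.6 and 33.0 CPM in siUPF1 (log2 difference -1.01 ± 0.073). IFI6, an interferon-induced protein of internal membranes, was at 1.60, 2.18 and 1.67 CPM in siDHX34 and at 0.736, 1.09 and 0.701 CPM in siUPF1 (-1.09 ± 0.23, adjusted p = 0.00366). IFI35 was at 9.46, 9.35 and 9.47 CPM in siDHX34 and at 6.82, 7.05 and 6.67 CPM in siUPF1 (-0.45 ± 0.069, adjusted p = 0.000548). In all 3 the groups did not overlap.

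TRIM25 (-0.34 ± 0.035), STAT2 (-0.26 ± 0.046), BST2 (-0.20 ± 0.031) and SAMHD1 (-0.19 ± 0.037) had smaller differences. IFITM2, BST2 and TRIM25 stayed called whichever library was left out. Without UPF1 replicate 1, 4 genes were called, and without UPF1 replicate 3, 3 genes. PARP14, ADAR, MAVS and IRF1 were called in neither direction between the knockdowns.

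Transcripts that GENCODE annotates as NMD substrates were then summed per gene and tested apart from the coding ones, since they are the forms that loss of the decay factor is meant to stabilise. With siUPF1, 9 such sums of list genes passed the filter and 0 were called by edgeR, beside 10.4% of 3771 sums that rose and 0.716% that fell. At an unadjusted p under 0.05 there were 3, and DESeq2 called 0. Their median log2 change was 0.46, equal to the median of 0.46 over all sums. Estimates below 0 came from SAMHD1 (-0.26 ± 0.12, adjusted p = 0.153) and IFITM2 (-0.21 ± 0.63, adjusted p = 0.857). The SAMHD1 sum made up 73.3% ± 16.0 of SAMHD1 TPM in SCR and 70.6% ± 3.85 in siUPF1 (SD, n = 3).

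The NMD-biotype sum of BST2 was at 26, 24 and 44 counts in SCR and at 115, 71 and 98 counts in siUPF1 (log2 change 1.34 ± 0.35, adjusted p = 0.0264). It made up 3.07% ± 0.576 of BST2 TPM in SCR, 2.44% ± 0.649 in siDHX34 and 7.39% ± 2.45 in siUPF1 (SD, n = 3). IFITM3 had 25, 13 and 16 counts in SCR against 47, 54 and 63 in siUPF1 (1.26 ± 0.38, adjusted p = 0.0454), and its share was 0.887% ± 0.344 in SCR and 2.36% ± 0.243 in siUPF1. In both genes no siUPF1 library overlapped with SCR, while the gene as a whole was not called.

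With siDHX34, 10 sums were tested and 1 was called higher by edgeR and by DESeq2, that of TRIM25, beside 0.226% of 3543 sums that rose and 0.395% that fell. It had 0 counts in all 3 SCR libraries, 51, 89 and 97 counts in siDHX34, and 0, 63 and 72 counts in siUPF1. Against a floor of 3 counts in each SCR library this was at least 24.1-fold higher in siDHX34. The sum passed the filter on low counts through the siDHX34 libraries alone, where it is high, and did not pass it in the siUPF1 comparison, so its call is a description and not a test. It was 3.51% ± 1.34 of TRIM25 TPM in siDHX34. With any 1 of the 6 libraries left out, or with all 9 libraries in 1 fit, no sum was called.

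ADAR makes a long form, p150, from an interferon-inducible promoter, and a short constitutive form, p110. Grouped by protein length, p150 comprised transcripts for 1226 and 1200 residues and p110 a transcript for 931 residues. p150 was at 5.16, 7.50 and 5.70 TPM in SCR, at 10.7, 12.6 and 11.7 TPM in siDHX34, and at 9.75, 10.1 and 10.8 TPM in siUPF1. Neither knockdown overlapped with SCR. p110 was at 20.3, 21.3 and 21.2 TPM in SCR, at 23.4, 23.2 and 27.6 TPM in siDHX34 and at 25.0, 23.9 and 23.6 TPM in siUPF1. For p110 too, neither knockdown overlapped with SCR, and the shift of the TPM scale is part of the values of both forms.

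The share of p150 in the 2 forms, which does not depend on the scaling between libraries, was 22.5% ± 3.12 in SCR, 32.2% ± 2.73 in siDHX34 and 29.7% ± 1.60 in siUPF1. The exact two-sided permutation test gave p = 0.1 for each knockdown against SCR, the smallest that 3 libraries against 3 allow, so no difference of this design could pass 0.05. The forms share most of their sequence, and the assignment of reads between them is an estimate.

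**Figure D4:**
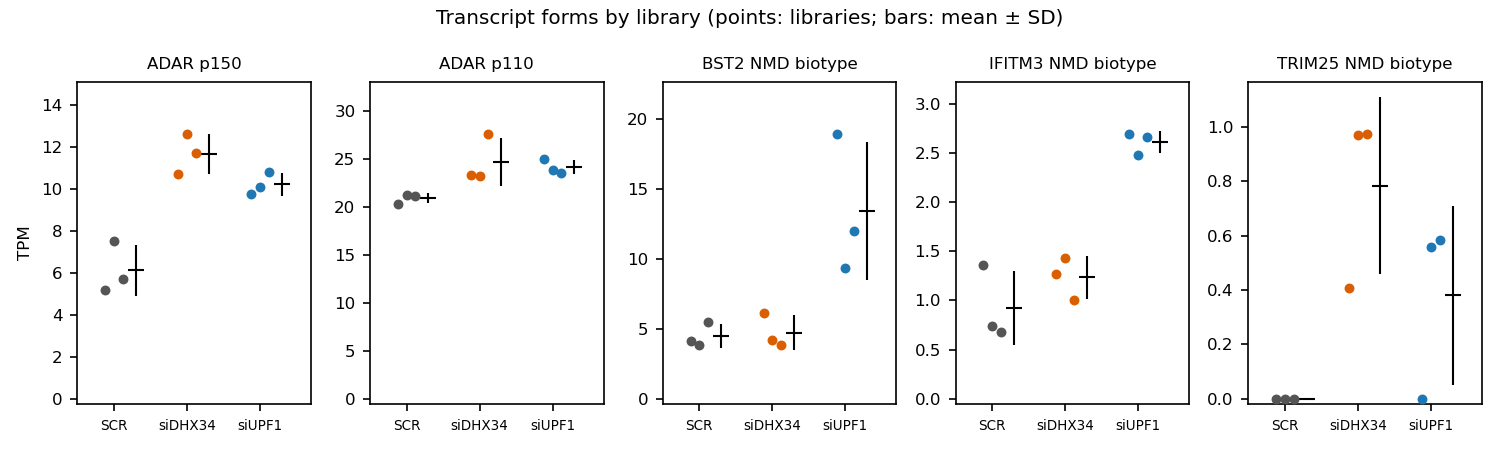
TPM of the p150 and p110 forms of ADAR and of the NMD-biotype transcripts of BST2, IFITM3 and TRIM25 in each library, with points for libraries and bars for the mean ± SD of 3. p150 is at 5.16 to 7.50 TPM in SCR and at 9.75 TPM or more in every knockdown library, and the TRIM25 sum is at 0 in SCR and in 1 siUPF1 library.

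Interferon ligands were as good as absent. Of 21 interferon genes 19 had 0 counts in every library, and the highest of the other 2, IFNK and IFNL1, was 0.0887 TPM. Receptors and kinases were present, 7 of 8 at 1 TPM or more: IFNAR1 at 19.0 to 35.4 TPM, IFNAR2 at 13.1 to 15.5 TPM, JAK1 at a mean of 16.0 TPM and TYK2 at 28.9 to 51.7 TPM. With siDHX34, 1 of the 8 rose (TYK2, log2 change 0.29 ± 0.049), where 5.54% of all genes rose. With siUPF1, IFNAR1 rose (0.24 ± 0.041) and IFNGR2 fell (-0.20 ± 0.046), each 1 of 8, where 12.4% of all genes rose and 12.9% fell.

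Of 17 genes of RNA sensing and its signalling 11 were expressed. RIGI, the sensor that TRIM25 acts on, stayed between 0.176 and 0.443 TPM, and TLR3 at or below 0.0981 TPM. With siDHX34 edgeR called 0 of the 14 tested, with 4 higher and 1 lower at an unadjusted p under 0.05, while DESeq2 called 2 higher. With siUPF1, 3 of 14 fell, where 12.9% of all genes fell: the adaptor TICAM1 (-0.26 ± 0.058), the kinase TBK1 (-0.21 ± 0.040), which phosphorylates IRF3, and the PKR activator PRKRA (-0.19 ± 0.043). No gene was called higher, where 12.4% of all genes rose. At an unadjusted p under 0.05, 4 were higher and 5 lower, and DESeq2 called 0 higher and 3 lower. RIGI had an uncalled estimate above 0 with siUPF1 (0.69 ± 0.22, edgeR adjusted p = 0.0222).

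Of 30 further interferon-induced genes 15 were expressed and 22 tested. With siDHX34, 6 rose and 0 fell (12 higher and 2 lower at an unadjusted p under 0.05; DESeq2 7 higher and 1 lower), with a median log2 change of 0.24. Over all genes 5.54% rose and 4.86% fell. The 5 with the smallest adjusted p were RNF213 (0.60 ± 0.060), LGALS3BP (1.04 ± 0.14), HLA-E (0.37 ± 0.049), HELZ2 (0.77 ± 0.12) and PARP12 (0.25 ± 0.048). LGALS3BP, a secreted glycoprotein, went from 1.68 CPM ± 0.0643 to 3.45 ± 0.233. With siUPF1, 5 rose and 0 fell (8 higher and 3 lower at an unadjusted p under 0.05; DESeq2 5 higher and 0 lower), with a median of 0.22. Over all genes 12.4% rose and 12.9% fell. These were HLA-E (0.50 ± 0.039), TAP1 (0.68 ± 0.086), RNF213 (0.32 ± 0.054), HELZ2 (0.68 ± 0.11) and PARP12 (0.23 ± 0.044). TAP1, the peptide transporter of antigen presentation, was at 4.96 CPM ± 0.176 in SCR and 7.97 ± 0.451 in siUPF1. Several readouts of an interferon response in this list were at or near 0: HERC5 had 0 counts, GBP1 reached 0.00557 TPM, and CXCL10 0.0713 TPM. Others were not: CMPK2, a mitochondrial nucleotide kinase, averaged 6.60 TPM. Its estimate with siDHX34 lay below 0 without passing the threshold (-0.39 ± 0.081, adjusted p = 0.00504), as did that of RSAD2 (-0.98 ± 0.33, adjusted p = 0.0496), an antiviral enzyme at a mean of 0.355 TPM.

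Markers of other cell types were examined beside these rises. The B cell marker MS4A1 had 0 counts in every library. Of 5 epithelial and fibroblast markers 3 were expressed (EPCAM, KRT19, COL1A2), with sums of 167 to 170 TPM in SCR, 194 to 205 in siDHX34 and 142 to 144 in siUPF1. Among them COL1A1 rose with siDHX34 from 0.701 CPM ± 0.0885 to 4.82 ± 0.515 and KRT19 from 114 CPM ± 2.90 to 133 ± 4.14. COL1A2 was at 7.77 CPM ± 0.883 and 5.20 ± 0.831 (adjusted p = 0.00744) and EPCAM at 101 CPM ± 1.18 and 90.8 ± 0.902 (adjusted p = 0.00702), and DESeq2 called 2 of the list higher and 2 lower. None of the 5 monocyte and macrophage markers (sum up to 0.563 TPM) or the 4 dendritic cell markers (sum up to 0.0543 TPM, CD1C at 0) was expressed. The part of these markers in the rises with siDHX34 was not tested. In bulk RNA fewer cells of a type and less RNA per cell cannot be told apart.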

How the data were processed

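Poly(A) RNA-seq libraries were analysed from 9 samples of K562 cells, 3 each of SCR, siDHX34 and siUPF1, grouped by their labels. The authors quantified reads with salmon against Ensembl transcripts on GRCh38, correcting for GC bias, and deposited for each of 203027 transcripts the expected counts, which need not be whole numbers. The TPM values used for levels are also as the authors deposited them. Strandedness is not given in the sources used here. The deposited sleuth and SUPPA2 tables hold the authors' own comparisons (p-values, q-values, effects, differences in exon inclusion) and were not used.

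Transcripts were joined to GENCODE 44 by identifier (97.9% matched, with 98.1% of counts) and summed per gene, or per gene and transcript biotype, and rounded. Symbols and biotypes are GENCODE's; promoter sequences are RefSeq's on GRCh38.p14. Tests were edgeR 4.0.16 quasi-likelihood fits in R 4.3.3, with TMM scaling. Each pair of groups was fitted on its own 6 libraries after filterByExpr with its minimum count set to 10. Calls required a p of at most 0.005, the study's threshold, after Benjamini-Hochberg adjustment over all genes or sums. CPM uses TMM library sizes. Single values were compared with exact permutation tests in SciPy 1.17.1. The fits were tested on simulated data.

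The members and lists were chosen with earlier results of these data known. All 35 genes were accounted for, with library values for those expressed or called; from the other pathway lists at most the 5 called genes with the smallest adjusted p were named, beside levels of further genes named after their values were seen. The alternatives were DESeq2 1.42.0, no filter, a threshold of 0.05, a replicate block, all 9 libraries in 1 fit, leaving out each library and, for genes, length-scaled counts, removal of a gene length trend and limma 3.58.1 on log2(TPM + 0.5). Replicates were 3 per group. The labels do not say whether they came from separate cultures, while the study's methods call them biological replicates, so p-values measure the spread between these samples. The summed level of the lymphoid markers is not reported here.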

Additional observations from a re-analysis of the deposited data

Results flagged for a closer look

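The direct comparison of the knockdowns, in which no SCR library enters, tested whether the effects of the siRNAs differed, and 8 list genes passed at an adjusted p of at most 0.005, all lower in siUPF1 than in siDHX34. The log2 differences were -1.09 for IFI6, -1.01 for IFITM2, -0.45 for IFI35, -0.34 for TRIM25, -0.29 for IFITM1, -0.26 for STAT2, -0.20 for BST2 and -0.19 for SAMHD1. Of all genes tested in this comparison 7.47% were lower. Against SCR, IFITM2 and IFITM1 were called lower with siUPF1, TRIM25, STAT2 and BST2 were called higher with siDHX34, and IFI6, IFI35 and SAMHD1 were called in neither knockdown. The cause of these differences was not tested.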

How the results depend on the processing

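Over 72 fold changes of list genes, alternatives gave 1008 values, of which 911 kept their call or stayed uncalled, 55 lost a call, 41 gained one and 1 called value reversed in sign: IRF3 with siUPF1 was 0.025 with limma on TPM. The median of all genes was 0.17 on that scale, so IRF3 lay below the median there as in the main fit. Among the 911, 52 uncalled values changed sign. For siDHX34 the 6 calls became 10 with DESeq2, 11 without a filter, 3 with length-scaled counts and 15 at a threshold of 0.05, and ranged from 3 to 7 when a library was left out. For siUPF1 the 5 calls became 2 with length-scaled counts, 3 with the gene length trend removed and 9 at 0.05, and 4 to 5 without a library. Between the knockdowns the 8 calls became 3 with length-scaled counts, 1 with limma on TPM and 3 to 8 without a library. The 1 NMD-biotype call with siDHX34 became 0 with all 9 libraries in 1 fit, 0 with the replicate block and 0 to 0 without a library. The 0 such calls with siUPF1 became 2 at 0.05. No share over all genes or sums was taken under these alternatives, so their counts cannot be set against a background. The cause was not tested.

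Labels give the groups the same replicate numbers, and the deviations of same-numbered libraries had r between -0.088 and 0.076. No shared deviation was seen, but r cannot tell whether same-numbered samples were prepared together. With the replicate block 5, 5 and 7 genes were called for siDHX34, siUPF1 and between the knockdowns, and 0 NMD-biotype sums for siUPF1. Of the genes below 0.1 TPM, IFIT1 alone had enough counts for a test of change.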

Other observations

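The type I interferon genes lie together on chromosome 9, and the genes around them were looked at after their values had been seen. Between FOCAD and DMRTA1 (GRCh38, chromosome 9, 20658309 to 22455740) GENCODE lists 23 coding genes, 16 of them interferon genes and 7 others, and 20 of the 23 had 0 counts in every library. Neighbours with other functions were at or near 0 as well: MTAP, an enzyme of methionine salvage that most cells express, was at 0.14 to 0.29 TPM, FOCAD at 0.086 to 0.21 TPM, and KLHL9 at 0. K562 is known to have lost a stretch of the short arm of this chromosome, but DNA was not analysed here.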
